A study of Rattus norvegicus with 12 samples.

Results

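The genes described here mostly encode structural parts of the axoneme, the microtubule core of a motile cilium. They were all the rat genes whose symbol in the array annotation begins with Dnah, Dnai, Dnal, Dnaaf, Odad, Rsph, Cfap, Drc or Tekt as the name of a dynein, spoke, tektin or cilia-associated family, or is Spag6, Spag16 or Spag17. This gave 50 genes of 14217 with a probe set of their own. They include 8 assembly factors of the dynein arms and 7 Cfap genes of mixed or less settled roles, also counted below as structural classes. The rule goes by name, and it was set with earlier results of these data known. Dnal4 also fits the names, but its 2 probe sets are shared with the pseudogene Dnal4-ps1 and were not assigned to it. Bronchial wall was cut out by laser from frozen lung sections, and the RNA was amplified for Affymetrix arrays that read rat transcripts near their 3′ ends. Fibrotic bronchi (3 arrays, replicates 3, 7 and 9) and non-fibrotic bronchi (3 arrays, replicates 4, 8 and 10) came from male Wistar Han rats that had inhaled 200 ppm 2,3-pentanedione (PD), a flavoring vapor, for 2 weeks, and control bronchi (6 arrays, replicates 1 to 6) from males that had breathed filtered air. The rats were a few weeks old when they were bought. The fibrotic specimens were the intraluminal lesions with the wall beneath them. Some rats gave both fibrotic and non-fibrotic tissue, and the labels do not say which, so that p-values between those groups do not allow for a shared animal.

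An axoneme has a ring of microtubule doublets around a central pair. Outer and inner dynein arms on each doublet pull on its neighbour, radial spokes and the central pair set the rhythm of the arms, and the nexin-dynein complex ties the doublets together so that sliding turns into bending. Dynein arms are put together in the cytoplasm by assembly factors before they enter the cilium, and tektins and many Cfap proteins line the inside of the doublet tubules. In the bronchus these structures belong to multiciliated cells, whose beat carries mucus upwards. Transcription factors of the RFX and forkhead (Foxj1) families switch on most genes of the motile cilium.

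Promoter sequences from RefSeq (build GRCr8) were matched to 42 of the 50 genes, as 250 bases before and 50 after the gene start. The RFX X-box, GTTNCC and its inverse GGNAAC with 2 bases between them, read on both strands, was found in 3 of the 42 (7.14%), Cfap20dc, Cfap298 and Odad3, and in 0.488% of all 27457 genes with a promoter. Its first part with 1 more base, GTTGCCA, which may lie inside a full match, was in 6 (14.3%), against 4.86% of all genes, and the forkhead core GTAAACA was in 3 (7.14%), Cfap20, Dnali1 and Tekt3, against 4.13%. The 3 full matches and the shorter matches of Tekt1 and Dnah2 are shown because these genes stand for 5 of the structural classes below. Each line is 100 bases of the coding strand, read 5′ to 3′, and capitals mark the match.
Odad3 (chr8:28810512-28810611, minus strand): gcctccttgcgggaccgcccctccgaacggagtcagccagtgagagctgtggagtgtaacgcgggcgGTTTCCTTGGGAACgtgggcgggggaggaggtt
Cfap298 (chr11:43677533-43677632, minus strand): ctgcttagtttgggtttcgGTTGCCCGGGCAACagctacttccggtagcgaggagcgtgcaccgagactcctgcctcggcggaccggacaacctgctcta
Cfap20dc (chr15:18661341-18661440, plus strand): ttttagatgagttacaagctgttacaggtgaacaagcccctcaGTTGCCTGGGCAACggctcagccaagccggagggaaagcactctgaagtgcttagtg
Tekt1 (chr10:57479122-57479221, minus strand): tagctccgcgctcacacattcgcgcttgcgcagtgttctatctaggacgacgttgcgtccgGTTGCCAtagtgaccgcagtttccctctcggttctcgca
Dnah2 (chr10:54766027-54766126, minus strand): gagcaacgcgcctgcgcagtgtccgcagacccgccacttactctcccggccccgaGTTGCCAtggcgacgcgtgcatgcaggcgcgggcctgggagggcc
In Odad3 the X-box ended 20 bases before the gene start, and in Cfap298 and Cfap20dc it ended 218 and 165 bases before it. A match is a string of letters and no measure of binding.

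Each value below is a log2 MAS5 signal of the probe set with the highest mean signal of its gene, and a difference of 1 is a 2-fold change. Standard errors (SE) and adjusted p-values are from 1 limma model of the 3 groups over 31042 probe sets, and an adjusted p (Benjamini-Hochberg) under 0.01 was taken as a call. Signals up to 6.52 were reached by control probe sets of a bacterial transcript that is not in the samples. This is the level of absent transcripts, and a group that lay under it on all its arrays has its fold change stated as a bound ("at least") from that level. Where only some did, they were set to it for the fold change. Levels of different probe sets cannot be ranked against each other.

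Some arrays stood apart. Controls 1 and 2 were sorted with the exposed arrays by the form of their labels, and controls 3 to 6 apart from them. The titles of all 6 controls read alike, but the sample numbers of controls 3 to 6 lie in a later block than those of all other arrays. The titles do not say whether these sets are batches. The log2 ratio of the 3′ to the 5′ probe set of GAPDH, a sign of RNA shortening, was 1.59 to 2.11 in fibrotic, 1.95 to 2.35 in non-fibrotic, 1.16 and 2.03 in controls 1 and 2 and 0.70 to 0.90 in controls 3 to 6. Signals of spiked poly-A transcripts averaged 8.02 to 11.06 in exposed arrays, 2.31 and 2.33 in controls 1 and 2, and 9.99 to 10.63 in controls 3 to 6. No 2 arrays were identical, and arrays of a group correlated at 0.820 to 0.957 over probe sets.

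In fibrotic bronchi the axoneme genes were lower nearly without exception. Of the 50, 45 were called lower than in controls and 0 higher, while 8.38% of all genes were called lower and 4.13% higher. In the same 45, each of the 3 fibrotic arrays lay below all 6 control arrays, as it did for 13.4% of all genes. The median difference of the 50 was -4.33, or -3.46 once lower signals were raised to the level of absent transcripts, and that of all genes was 0.10. One gene, Dnah17, was higher at an unadjusted p under 0.05, as were 19.2% of all genes, and it was not called. Every structural class took part, from the outer arms (2 of 3 called) to the tektins (4 of 6). Against controls 1 and 2 alone 27 genes were called, and the median was -4.41, while 1.11% of all probe sets were called lower. In these bulk specimens fewer ciliated cells and less RNA per ciliated cell cannot be told apart.

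In non-fibrotic bronchi of the same exposure most axoneme genes had values under the control mean, but few were called. The median difference from controls was -1.00, against 0.00 over all genes. This comparison shares its 6 control arrays with the fibrotic one. Of the 50 genes, 4 were called lower and 0 higher, while 0.436% of all genes were called lower and 0.183% higher. The 4 were Dnah1 of the inner arm, the assembly factor Dnaaf9, and Cfap20dc and Cfap299, of the Cfap genes with mixed or less settled roles. At an unadjusted p under 0.05, 26 were lower, as were 13.8% of all genes, and 2 (Dnah17 and Tekt5l1) higher, as were another 13.8%. In 20 genes every non-fibrotic array lay below every control array, against 6.37% of all genes. Against controls 1 and 2 alone limma called none of the 50, with 8 lower and 0 higher at an unadjusted p under 0.05 while 4.46% of all probe sets were lower, and the median was -0.66. Against controls 3 to 6 alone it called 8 lower, and 1.51% of all probe sets.

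**Figure D1:**
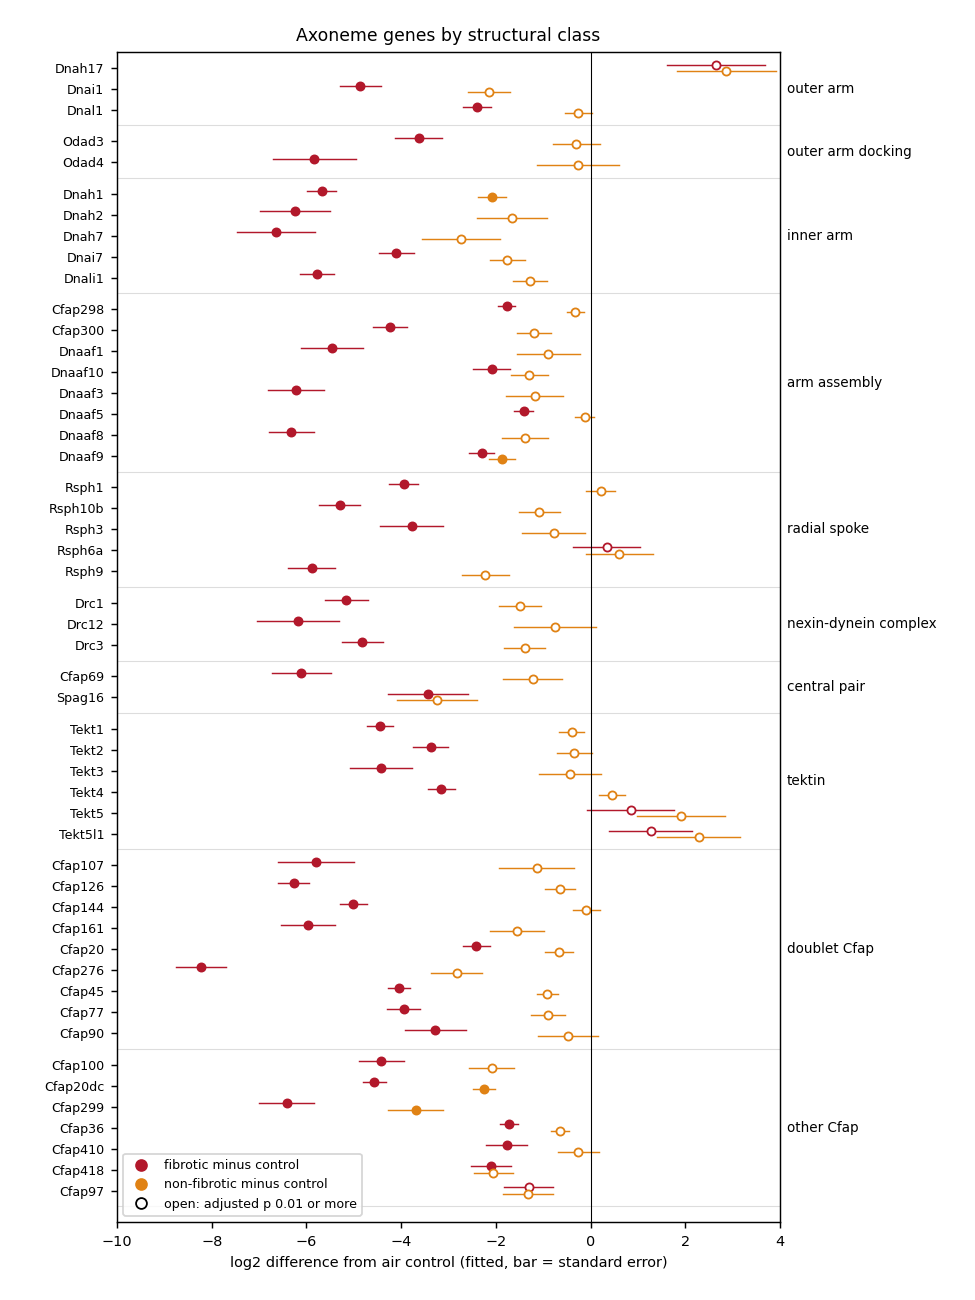
Fitted log2 difference from air controls for the 50 axoneme genes, grouped by structural class, with bars for the standard error. Red points are fibrotic and orange points non-fibrotic bronchi, and open points have an adjusted p of 0.01 or more. In 43 of the 45 genes called in fibrotic bronchi the non-fibrotic mean lay between the fibrotic and the control mean. The choice of the 45 against the same controls fixes part of this order, and the share over all genes was not counted. A mean barely under that of the controls, as in Cfap144 (difference -0.09), also counts as between.

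The dynein arms carry the motors. The outer arm was represented by Dnai1, an intermediate chain, Dnal1, a light chain, and Dnah17, a heavy chain known from sperm flagella of mouse and human. Dnai1 had signals of 5.31, 7.24 and 6.69 in fibrotic and 7.98, 9.97 and 9.46 in non-fibrotic bronchi, against 10.74 to 11.73 with a median of 11.29 in controls. The 3 groups did not overlap. Its difference from controls was -4.86 in fibrotic bronchi (SE 0.44, adjusted p = 1.7e-06), which is 22-fold, and -2.14 in non-fibrotic bronchi (SE 0.44, adjusted p = 0.016). Dnal1 measured 9.22, 8.71 and 9.75 in fibrotic and 11.60, 11.55 and 10.95 in non-fibrotic bronchi, against 10.90 to 12.23 with a median of 11.68 in controls. The non-fibrotic arrays thus lay within the control range, and the fibrotic ones below it, with a difference of -2.40 (SE 0.29, adjusted p = 2.9e-05), or 5.29-fold. Dnah17 gave 5.50, 6.06 and 7.59 in fibrotic and 5.17, 6.35 and 8.28 in non-fibrotic bronchi, against 1.89 to 6.28 with a median of 3.21 in controls. Controls 1 and 2 had 5.90 and 6.28 and controls 3 to 6 had 1.89 to 3.25, and the exposed groups were not called against all controls together (adjusted p = 0.09 in fibrotic and 0.098 in non-fibrotic bronchi). The fibrotic and control means both lay under the level of absent transcripts. Against controls 1 and 2 the non-fibrotic difference was 0.51, and against controls 3 to 6 it was 4.05.

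The outer arm sits on the doublet through a docking complex. Odad3 measured 5.64, 5.22 and 7.79 in fibrotic and 9.00, 10.45 and 9.19 in non-fibrotic bronchi, against 9.32 to 10.73 with a median of 9.76 in controls. Odad4 measured 2.86, 7.52 and 9.35 in fibrotic and 11.78, 12.22 and 12.39 in non-fibrotic bronchi, against 12.07 to 13.12 with a median of 12.27 in controls. Both were called lower in fibrotic bronchi, Odad3 with a difference of -3.63 (SE 0.50, adjusted p = 0.0001) and Odad4 with one of -5.83 (SE 0.87, adjusted p = 0.00022), and fibrotic replicate 3 was far under the other two for Odad4. Once lower signals were raised to the level of absent transcripts, these fibrotic differences were -2.91 and -4.61. In non-fibrotic bronchi the difference was -0.30 for Odad3 (adjusted p = 0.73) and -0.27 for Odad4 (adjusted p = 0.87).

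The inner arm was represented by 5 genes. All 5 were called lower in fibrotic bronchi, with a median of -5.77, or -4.56 once lower signals were raised to the level of absent transcripts. Their median in non-fibrotic bronchi was -1.76. Dnah1, an inner arm heavy chain, had 6.13, 5.34 and 6.77 in fibrotic and 9.15, 9.97 and 9.91 in non-fibrotic bronchi, against 11.32 or more with a median of 11.77 in controls. These were 3 separate levels. The difference was -5.68 in fibrotic bronchi (SE 0.30, adjusted p = 1.4e-08), or 35.6-fold, and -2.08 in non-fibrotic bronchi (SE 0.30, adjusted p = 0.0028), or 4.23-fold. Dnah7, another heavy chain, had 1.02, 5.96 and 6.32 in fibrotic and 8.59, 8.59 and 7.82 in non-fibrotic bronchi, against 10.34 to 11.62 with a median of 11.26 in controls. All its fibrotic arrays lay under the level of absent transcripts, so that it was at least 23.6-fold lower there (difference -6.64, SE 0.82, adjusted p = 3.9e-05). Its non-fibrotic difference was -2.74 (SE 0.82, adjusted p = 0.058), which was not called although the groups did not overlap. The third heavy chain, Dnah2, was at least 14.7-fold lower in fibrotic bronchi (adjusted p = 2.5e-05) and had a difference of -1.65 in non-fibrotic bronchi (adjusted p = 0.17).

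Dnali1, the light chain of the single-headed inner arm dyneins, had 6.00, 5.51 and 6.38 in fibrotic and 9.61, 10.96 and 10.79 in non-fibrotic bronchi, against 10.66 to 12.12 with a median of 11.89 in controls. It was at least 37.1-fold lower in fibrotic bronchi (adjusted p = 4.2e-08). Its second, dimmer probe set gave another picture against controls, with a fibrotic difference of -0.95 (adjusted p = 0.11) and a non-fibrotic one of 1.15 (adjusted p = 0.085). Between fibrotic and non-fibrotic bronchi this probe set was called lower, like the first (difference -2.09, adjusted p = 0.0088). Dnai7, an intermediate chain, fell by 4.10 in fibrotic bronchi (adjusted p = 1.8e-06) and had a difference of -1.76 in non-fibrotic bronchi (adjusted p = 0.019). The inner arm median of non-fibrotic bronchi was -1.76 against controls 1 and 2 and -2.00 against controls 3 to 6.

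**Figure D2:**
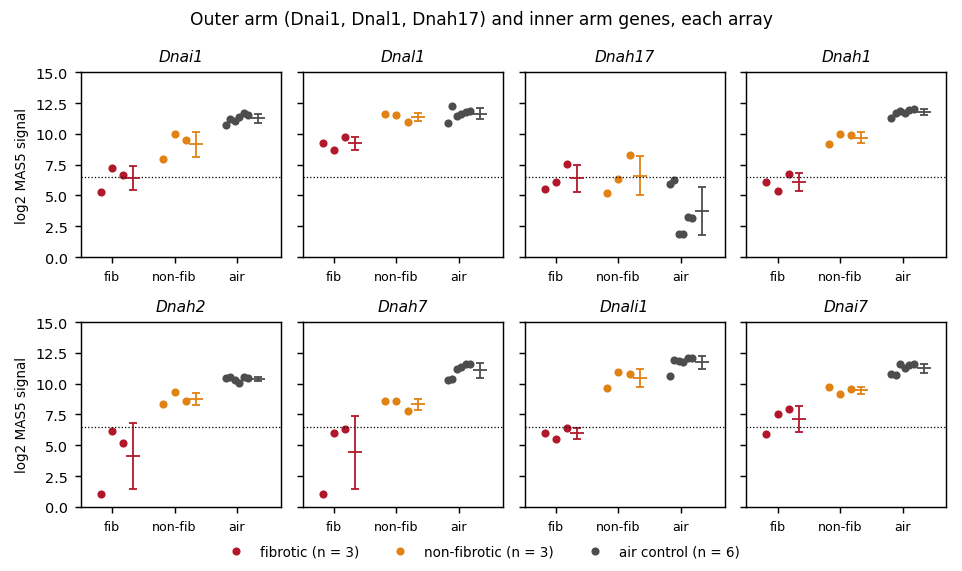
Log2 MAS5 signal of the outer arm genes Dnai1, Dnal1 and Dnah17 and of the 5 inner arm genes in each array (points: 3 fibrotic, 3 non-fibrotic, 6 air control) with the mean and SD of each group, and a dotted line at the level of absent transcripts, 6.52. Dnai1 and the inner arm genes other than Dnali1 stand on 3 steps, while non-fibrotic arrays of Dnali1 overlap the controls and Dnal1 in non-fibrotic bronchi stands at 10.95 to 11.60, within the range of the controls.

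All 8 assembly factors were called lower in fibrotic bronchi, over a wide range of differences. Dnaaf8 had 4.19, 2.03 and 4.21 in fibrotic and 7.87, 8.95 and 8.44 in non-fibrotic bronchi, against 9.26 to 10.38 with a median of 9.76 in controls. It was at least 9.71-fold lower in fibrotic bronchi (difference -6.32, SE 0.48, adjusted p = 3.1e-07). Dnaaf3, with every fibrotic array under the level of absent transcripts, was at least 15.5-fold lower (difference -6.22). Dnaaf1 differed by -5.46 and Cfap300 by -4.24, or by -3.39 and -3.78 once lower signals were raised to that level. At the other end, Dnaaf5 fell by 1.41 (SE 0.20, adjusted p = 0.00013) and Cfap298 by 1.77 (SE 0.18, adjusted p = 5.4e-06). These last 2 kept signals above 9.9 in every fibrotic array. Dnaaf9 was the one gene of the class called in both exposed groups. It had 7.99, 7.70 and 7.72 in fibrotic and 7.84, 8.00 and 8.84 in non-fibrotic bronchi, against 9.86 to 10.35 with a median of 10.10 in controls. Both exposed groups lay under all controls (differences -2.30, adjusted p = 2.7e-05, and -1.87, adjusted p = 0.0028) and overlapped with each other (difference -0.43, adjusted p = 0.46). Against controls 1 and 2 alone, where fewer arrays were fitted, the non-fibrotic call of Dnaaf9 was lost with a difference of -1.68, as were those of Dnah1 (-1.85), Cfap299 (-3.55) and Cfap20dc (-2.34).

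Radial spokes reach from each doublet to the central pair. Rsph1, of the spoke head, had 8.65, 9.49 and 10.14 in fibrotic and 13.19, 13.95 and 13.63 in non-fibrotic bronchi, against 12.99 to 14.06 with a median of 13.25 in controls. It fell by 3.95 in fibrotic bronchi (SE 0.30, adjusted p = 3.2e-07), or 15.5-fold, and its non-fibrotic difference was 0.21 (SE 0.30, adjusted p = 0.68), which turned to -0.05 after quantile normalization and to -0.28 against controls 1 and 2. Rsph9, also of the head, had 5.01, 5.24 and 7.09 in fibrotic and 9.13, 10.26 and 8.98 in non-fibrotic bronchi, against 10.38 to 12.29 with a median of 11.98 in controls. It fell by 5.89 in fibrotic bronchi (SE 0.49, adjusted p = 7.7e-07), or 31.3-fold once lower signals were set to the level of absent transcripts. Its non-fibrotic difference was -2.22 (SE 0.49, adjusted p = 0.022), with no overlap.

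Rsph10b measured 5.42, 6.42 and 7.84 in fibrotic and 10.17, 11.87 and 10.32 in non-fibrotic bronchi, against 11.63 to 12.03 with a median of 11.90 in controls. It fell by 5.30 in fibrotic bronchi (adjusted p = 6.7e-07), or 29.9-fold, and its second probe set, under the level of absent transcripts in the mean of every group, did not show this (difference -0.89, adjusted p = 0.46). Rsph3, of the spoke stalk, measured 3.73, 7.29 and 8.00 in fibrotic and 8.82, 10.09 and 9.11 in non-fibrotic bronchi, against 9.36 to 10.47 with a median of 10.21 in controls. It was called lower in fibrotic bronchi, with a difference of -3.78 (SE 0.66, adjusted p = 0.00082), or 7.23-fold. Rsph6a, known from sperm, had group means of 5.59 in fibrotic, 5.85 in non-fibrotic and 5.25 in control bronchi, all under the level of absent transcripts, and no fold change is given for it.

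Of the nexin-dynein genes all 3 were called lower in fibrotic bronchi. Drc1, the scaffold of the complex, had 4.35, 5.49 and 6.71 in fibrotic and 9.20, 8.64 and 9.73 in non-fibrotic bronchi, against 9.60 to 11.14 with a median of 10.80 in controls (fibrotic difference -5.16, SE 0.45, adjusted p = 1.4e-06). Drc12 and Drc3 fell by 6.18 and 4.82. Once lower signals were raised to the level of absent transcripts, the differences were -4.09 for Drc1, -4.79 for Drc12 and -4.26 for Drc3. Of the central pair, Cfap69 had 2.79, 5.98 and 7.04 in fibrotic and 9.41, 10.42 and 10.62 in non-fibrotic bronchi, against 10.95 to 11.57 with a median of 11.44 in controls, and it fell by 6.11 in fibrotic bronchi (SE 0.62, adjusted p = 5.7e-06). Spag16 was dim. It had 4.81, 2.10 and 5.29 in fibrotic and 5.32, 1.95 and 5.52 in non-fibrotic bronchi, against 6.81 to 8.21 with a median of 7.62 in controls, and all 6 exposed arrays lay under the level of absent transcripts. It was at least 1.98-fold lower in fibrotic (adjusted p = 0.0093) and in non-fibrotic bronchi (adjusted p = 0.036). The fibrotic call of Spag16 held in 11 of 26 alternative settings and was lost with its second probe set (adjusted p = 0.09).

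Tektins form filaments inside the doublets. Tekt1 had 6.74, 7.37 and 8.22 in fibrotic and 11.48, 11.80 and 11.18 in non-fibrotic bronchi, against 11.77 or more with a median of 11.90 in controls. It fell by 4.45 in fibrotic bronchi (SE 0.27, adjusted p = 3.1e-08), or 21.8-fold, while the non-fibrotic difference was -0.40 (SE 0.27, adjusted p = 0.35). Tekt2 had 7.90, 9.18 and 7.25 in fibrotic and 11.30, 11.34 and 10.77 in non-fibrotic bronchi, against 10.72 to 11.95 with a median of 11.66 in controls (fibrotic difference -3.37, SE 0.37, adjusted p = 1.1e-05). Tekt4 had 9.41, 9.01 and 9.29 in fibrotic and 12.60, 13.54 and 12.38 in non-fibrotic bronchi, against 11.95 to 13.14 with a median of 12.28 in controls. It fell by 3.15 in fibrotic bronchi (SE 0.28, adjusted p = 1.5e-06), or 8.89-fold, and its non-fibrotic difference was 0.45 (SE 0.28, adjusted p = 0.31), or -0.04 against controls 1 and 2. For these genes and for Tekt3 the non-fibrotic arrays overlapped the controls, and the fibrotic arrays lay below both.

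Tekt3 measured 2.03, 6.06 and 4.31 in fibrotic and 8.20, 7.94 and 8.26 in non-fibrotic bronchi, against 7.50 to 9.51 with a median of 8.54 in controls, at least 4.14-fold lower in fibrotic bronchi (adjusted p = 0.00022). Tekt5, which is known from sperm, had 3.22 to 6.20 in fibrotic, 4.61 to 7.04 in non-fibrotic and 2.30 to 5.95 in control bronchi. Tekt5l1 had 2.91 to 5.71 in fibrotic, 3.99 to 6.40 in non-fibrotic and 1.81 to 4.50 in control bronchi. The means of both were under the level of absent transcripts in all 3 groups. No call was made for them, and the class median of 0.06 in non-fibrotic bronchi is -0.17 when such signals are set to the level. Of the genes put on a list of sperm flagellum genes (Dnah17, Rsph6a, Tekt3, Tekt4 and Tekt5), Tekt3 and Tekt4 were called lower in fibrotic bronchi. Both lay above the level of absent transcripts in every control array, while Dnah17, Rsph6a and Tekt5 lay under it there. A place on the list thus does not mean absence from bronchus.

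**Figure D3:**
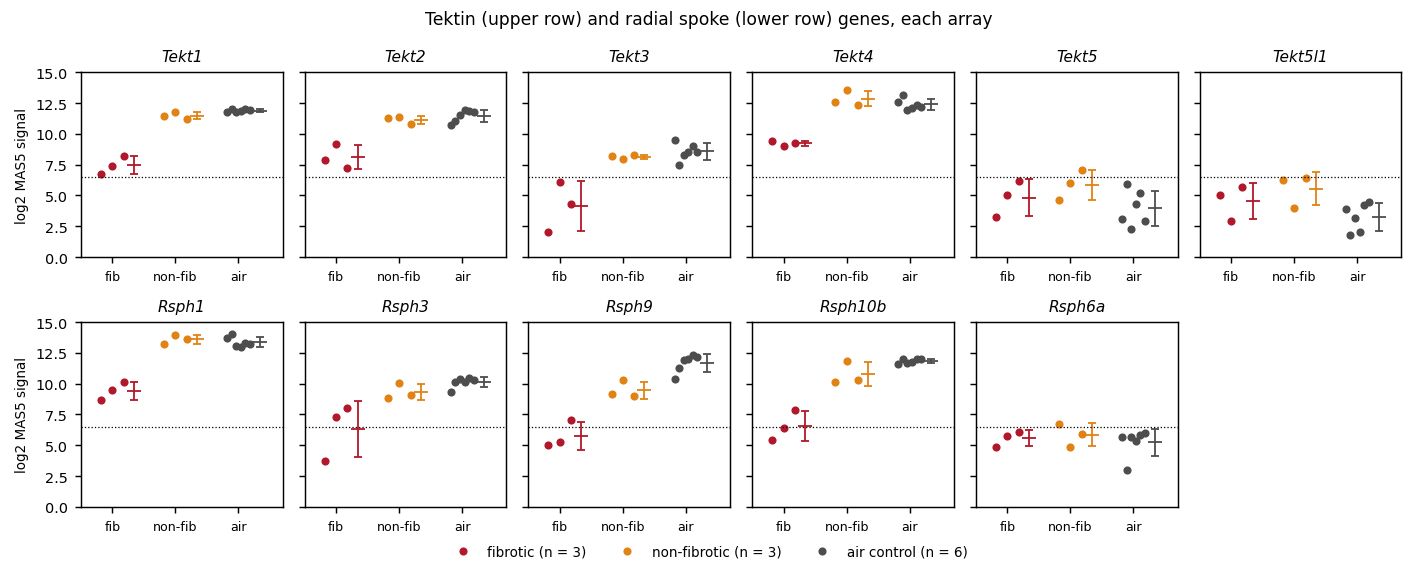
Log2 MAS5 signal of the 6 tektin genes (upper row) and 5 radial spoke genes (lower row) in each array (points: 3 fibrotic, 3 non-fibrotic, 6 air control) with the mean and SD of each group, and a dotted line at the level of absent transcripts, 6.52. Tekt1 to Tekt4 and Rsph1 were low in fibrotic bronchi, with non-fibrotic arrays overlapping the controls, and Tekt5, Tekt5l1 and Rsph6a lay near or under the line in all groups.

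The Cfap proteins of the doublet were called lower in fibrotic bronchi in 9 of 9 cases. Their median was -5.01, or -3.47 once lower signals were raised to the level of absent transcripts. Cfap276, a protein inside the doublet, had a fitted difference of -8.23 (SE 0.53, adjusted p = 6.3e-08), which rests on fibrotic signals under the level of absent transcripts. Its signals were 1.47, 1.22 and 2.56 in fibrotic and 8.08, 6.67 and 6.69 in non-fibrotic bronchi, against 8.87 to 10.69 with a median of 10.28 in controls, so that it was at least 11-fold lower in fibrotic bronchi. Its non-fibrotic difference was -2.83 (SE 0.53, adjusted p = 0.011), on the threshold, and it was called in 11 of 27 alternative settings. Cfap126, or Flattop, had 5.55, 6.45 and 7.27 in fibrotic and 11.64, 12.42 and 12.08 in non-fibrotic bronchi, against 12.29 to 13.23 with a median of 12.65 in controls, and was 60.7-fold lower in fibrotic bronchi (difference -6.27, SE 0.32, adjusted p = 9.8e-09). Cfap144 had 7.62, 8.86 and 8.87 in fibrotic and 12.95, 13.82 and 13.35 in non-fibrotic bronchi, against 13.04 to 13.84 with a median of 13.49 in controls. The fibrotic difference was -5.01 (SE 0.28, adjusted p = 1.5e-08), or 32.3-fold, and the non-fibrotic one was -0.09 (SE 0.28, adjusted p = 0.86). Cfap20, at the inner junction of the doublet, fell by 2.41, the least of the class (adjusted p = 3e-05).

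The remaining 7 Cfap genes have mixed or less settled roles. Their median difference in non-fibrotic bronchi was -2.05, and 2 of them were called there. Cfap20dc, whose promoter holds a full X-box, had 6.39, 6.87 and 6.78 in fibrotic and 8.94, 8.72 and 9.35 in non-fibrotic bronchi, against 10.94 to 11.50 with a median of 11.25 in controls. The 3 groups were narrow and apart, with differences of -4.57 (SE 0.24, adjusted p = 1.4e-08) and -2.25 (SE 0.24, adjusted p = 0.00053). The non-fibrotic call of Cfap20dc was lost in 1 of 27 settings, controls 1 and 2 alone (adjusted p = 0.081). Cfap299 had 5.19, 2.96 and 6.26 in fibrotic and 6.27, 8.51 and 7.82 in non-fibrotic bronchi, against 10.73 to 11.54 with a median of 11.26 in controls. Its differences were -6.42 (SE 0.58, adjusted p = 1.7e-06) and -3.69 (SE 0.58, adjusted p = 0.0044), and the call in non-fibrotic bronchi held in 17 of 27 settings. All fibrotic arrays of Cfap299 lay under the level of absent transcripts, so that it was at least 26-fold lower there.

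Cfap418 had 9.83, 8.35 and 8.66 in fibrotic and 9.48, 7.62 and 9.89 in non-fibrotic bronchi, against 10.80 to 11.37 with a median of 10.99 in controls. Both exposed groups were under all controls, with differences of -2.10 (adjusted p = 0.0023) and -2.05 (adjusted p = 0.016), and they overlapped each other. Cfap97 had 8.15, 6.31 and 8.64 in fibrotic and 7.90, 6.36 and 8.82 in non-fibrotic bronchi, against 8.56 to 9.32 with a median of 9.08 in controls, and it was called in no comparison (fibrotic difference -1.31, adjusted p = 0.097). Cfap410 had all its fibrotic arrays under the level of absent transcripts and was at least 2.04-fold lower there (difference -1.77, adjusted p = 0.0094). That call held in 13 of 27 settings. Cfap36 fell by 1.73 in fibrotic bronchi (adjusted p = 1.4e-05). The second probe set of Cfap36 had a fibrotic difference of -0.36 (adjusted p = 0.3) and a non-fibrotic one of 0.72 (adjusted p = 0.068). Cfap100 fell by 4.42 (adjusted p = 8.1e-06).

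Set against each other, fibrotic and non-fibrotic bronchi of exposed rats differed in most axoneme genes. Of the 50, 35 were called lower in fibrotic bronchi and 0 higher, while 3.83% of all genes were called lower and 1.47% higher, and 0 were higher at an unadjusted p under 0.05 by limma, the one tool run, while 14.3% of all genes were. Every fibrotic array lay below every non-fibrotic array in 40 genes, against 13.3% of all genes. The median difference was -3.10. The lowest p-values belonged to Cfap126 (difference -5.62, SE 0.37) and Cfap144 (difference -4.92, SE 0.32), each with an adjusted p of 5.5e-07, followed by Tekt1 (difference -4.04, SE 0.31, adjusted p = 2.2e-06) and Rsph1 (difference -4.16, SE 0.34, adjusted p = 3.7e-06). Fitted without the intensity trend 22 were called (1.41% of all probe sets lower), and in a fit of only these 2 groups 11 (0.783%). Among the genes called lower against controls but not between exposed groups were Dnaaf9, Dnaaf10 and Cfap418, whose fibrotic minus non-fibrotic differences were -0.43, -0.80 and -0.05, and Spag16, which lay under the level of absent transcripts in both groups.

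The differences of both exposed groups from their shared controls lay close for some genes and far apart for others. For Dnaaf10 the difference was -2.09 in fibrotic and -1.29 in non-fibrotic bronchi. Cfap418 and Dnaaf9, described above, were of this kind. For Tekt1, Odad4, Cfap144, Rsph1 and Tekt4 the fibrotic difference was -3.15 or further below 0, while the non-fibrotic one was between -0.40 and 0.45. In 16 of the 45 genes (35.6%) the 3 groups formed separate ranges in the order fibrotic, non-fibrotic, control, as they did in 14.4% of all 1192 genes called lower in fibrotic bronchi, a choice that fixes part of this order. The non-fibrotic difference was larger in genes with a longer span in the genome. Over the 45 genes Spearman's rho between log span and the non-fibrotic difference was -0.49, and it was -0.49 against controls 1 and 2, -0.45 against controls 3 to 6 and -0.43 once lower signals were raised to the level of absent transcripts. The 22 longer genes (25600 to 919670 bp) had a median of -1.31 and the 23 shorter (3540 to 24899 bp) one of -0.91. The fibrotic difference had a rho of -0.10, and over 10438 genes above the level of absent transcripts in controls the non-fibrotic rho was 0.04. Those 10438 genes were not chosen by a fibrotic call, as the 45 were. Whether the relation holds within a structural class was not tested. All points share the same arrays, genes are not independent replicates, and the relation was looked for after the values had been seen.

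**Figure D4:**
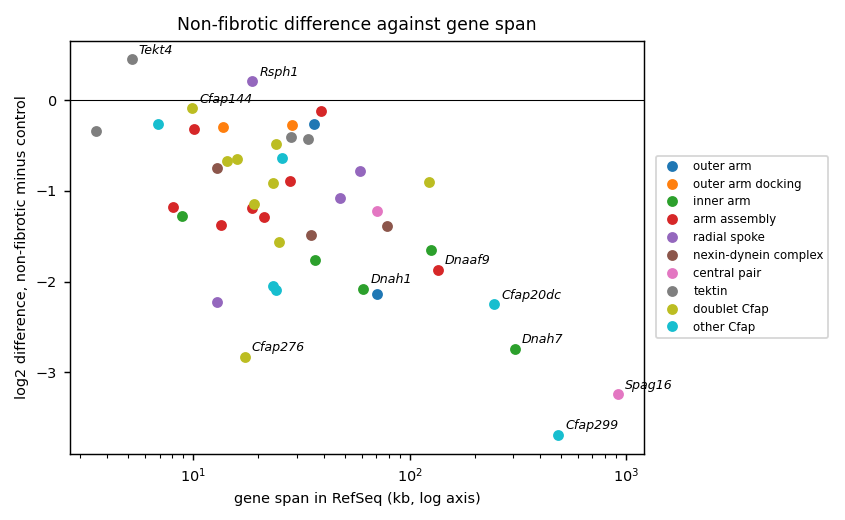
Non-fibrotic minus control log2 difference of the 45 axoneme genes called lower in fibrotic bronchi, against the span of the gene in RefSeq in kb on a log axis, coloured by structural class. Cfap299, Dnah7 and Cfap20dc, with long spans, lie low, but so do the shorter Cfap276 (-2.83) and Rsph9 (-2.22), and Cfap77, with a long span, lies at -0.90. The value of Spag16 rests on signals under the level of absent transcripts.

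Arrays of a group differed in their axoneme signals. The median over the 50 genes, relative to the control mean, was -5.22, -4.24 and -3.35 in fibrotic replicates 3, 7 and 9, and -1.26, -0.78 and -0.71 in non-fibrotic replicates 4, 8 and 10. Controls lay between -0.46 (replicate 1) and 0.30 (replicate 5). Fibrotic replicate 9 was the highest fibrotic array in 32 of the 45 called genes and replicate 3 the lowest in 23. In 10 of the 45 all 3 fibrotic arrays, and in others some, lay under the level of absent transcripts, where signals give no order. The medians above were taken without raising such signals to that level. Non-fibrotic replicate 4 was the lowest of its group in 25, and control replicate 1 the lowest of the controls in 32.

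Markers of some other cell types also differed between fibrotic and control bronchi, in both directions. Of the genes that mark club cells, 9 of 9 measured were called lower in fibrotic bronchi (median -5.99), and their mean signal was 6.14 to 7.50 in fibrotic, 10.11 to 11.58 in non-fibrotic and 11.89 to 12.70 in control arrays. Of 10 markers of epithelium in general 4 were lower and 1 higher (median -0.77), with mean signals of 10.91 to 11.27 in fibrotic, 11.29 to 11.86 in non-fibrotic and 11.38 to 11.98 in control arrays. Fibroblast markers were higher in 5 of 9 cases (means 12.33 to 13.13 in fibrotic, 10.09 to 11.51 in non-fibrotic and 9.67 to 11.30 in control arrays) and macrophage markers in 5 of 10 (means 10.75 to 11.71 in fibrotic, 6.78 to 10.15 in non-fibrotic and 7.70 to 9.07 in control arrays). No basal cell marker of 8 and no smooth muscle marker of 8 was called, and of 7 endothelial markers 1 was lower. The basal cell markers had a median difference of 1.82 all the same. Their means were 7.55 to 10.13 in fibrotic, 5.56 to 6.90 in non-fibrotic and 4.43 to 8.48 in control arrays. The part of these shifts, and of the GAPDH ratio, in the differences of axoneme genes was not tested. In non-fibrotic bronchi 2 of 9 club cell markers were called lower, and no marker of epithelium, fibroblasts or macrophages was called.

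**Figure D5:**
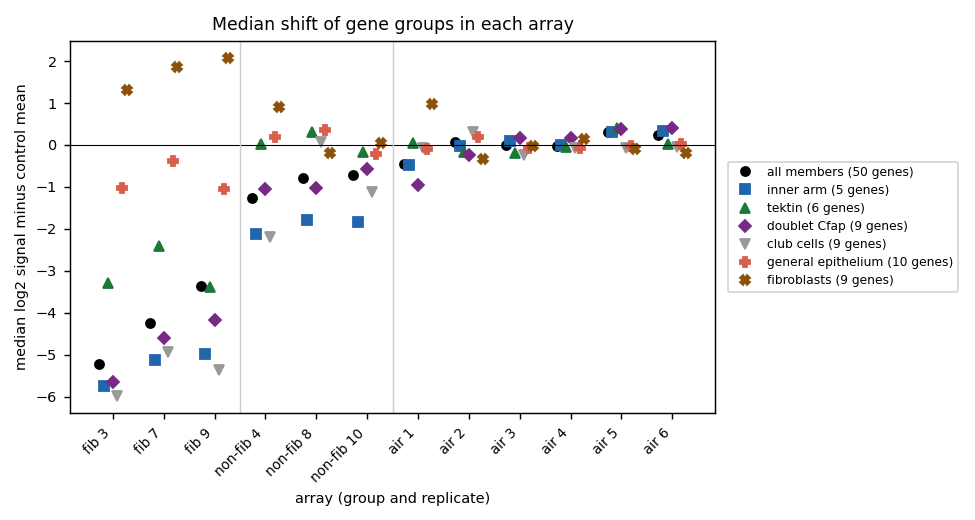
Median log2 signal minus the control mean in each of the 12 arrays for all 50 axoneme genes, for the inner arm, tektin and doublet Cfap classes, and for marker lists of club cells, epithelium and fibroblasts. The axoneme medians run from -5.22 to -3.35 in fibrotic, from -1.26 to -0.71 in non-fibrotic and from -0.46 to 0.30 in control arrays, while the fibroblast markers lie at 1.30 to 2.08 in fibrotic arrays.

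Genes of the same cilium that carry other names moved likewise. On the list of other axoneme and cilium genes 26 were measured, of which 25 were called lower in fibrotic bronchi (median -3.67) and none in non-fibrotic bronchi (median -0.41), and 21 were called lower in fibrotic than in non-fibrotic bronchi. Foxj1, the forkhead factor of multiciliated cells, had 6.80, 7.70 and 8.42 in fibrotic and 12.16, 12.86 and 12.14 in non-fibrotic bronchi and a mean of 12.35 ± 0.32 (SD, n = 6) in controls. It fell by 4.72 in fibrotic bronchi (SE 0.30, adjusted p = 6.3e-08), and its non-fibrotic difference was 0.03 (SE 0.30, adjusted p = 0.96). Ccdc40, which sets the spacing of the inner arms, had a fibrotic difference of -4.93 (adjusted p = 3.6e-06) and a non-fibrotic one of -1.56 (adjusted p = 0.061). Ccdc40 was picked after its values had been seen, and its non-fibrotic difference lay further below 0 than the median of the list. Dynlt5 was the one gene of the list that was not called (difference -0.55, adjusted p = 0.81), with a control mean of 3.12, under the level of absent transcripts.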

How the data were processed

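The 12 arrays of laser-captured rat bronchi were analysed together. The intensity values are MAS5 signals that the authors made with the Affymetrix GeneChip Command Console 1.1 and deposited on a linear scale, each array scaled to a trimmed mean of 500. The log2 of each signal was used, with no pseudocount. Of 31099 probe sets, 57 Affymetrix controls were left out, and 31042 were fitted in 1 model of the 3 groups (limma 3.58.1 in R 4.3.3, lmFit and eBayes with an intensity trend, no filter). The annotation gives 1 symbol for 20826 of them, several for 436 and none for 9780. Members with several probe sets (9 of 50) took the one with the highest mean signal. All 50 matched RefSeq by Entrez ID. The named genes were, by class, those with the smallest p or the largest difference, all genes not called, those called in non-fibrotic bronchi, all tektins and all spoke genes. The members, classes and lists were chosen with earlier results of these data known. The number of arrays limits the precision. Alternatives changed the threshold, filter, scaling, variance model, controls, probe set and arrays. Groups without a stated link to separate animals give p-values that measure only the spread between arrays. Figures were drawn with matplotlib 3.10.9.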

Additional observations from a re-analysis of the deposited data

Results flagged for a closer look

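In 9 of the 50 genes 1 of the 6 control arrays stood far from the other 5 (Dixon's test, which chance alone triggers in about 1 in 20 groups). In 7 of the 9 it was control replicate 1, which was low. Its signal was 10.66 for Dnali1 (the others 11.77 to 12.12), 9.78 for Cfap300 (10.35 to 10.68) and 9.70 for Dnaaf10 (10.82 to 11.38). It was 9.29 for Dnaaf3 (10.53 to 10.98), 9.36 for Rsph3 (10.13 to 10.47), 9.60 for Drc1 (10.71 to 11.14) and 11.75 for Drc12 (12.32 to 12.57). Control replicate 2 was high for Odad3 at 10.73 (the others 9.32 to 9.84) and low for Rsph6a at 3.03 (5.32 to 5.97), where every control lay under the level of absent transcripts.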

How the results depend on the processing

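Of the 45 genes called in fibrotic against control bronchi, 25 were called in every alternative at the same threshold, and none changed its direction. Their number was 42 to 45 with 1 array left out, 27 with controls 1 and 2 alone, 39 with the form of label as a fixed block, 43 with it as a random block, and 46 with array weights. Dnah17 was called higher with array weights and with controls 3 to 6 alone, and no other gene was called higher in any alternative. The median was -4.57 to -3.98 with 1 array left out.

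The 4 calls of non-fibrotic against control bronchi were more sensitive. Their number was 13 at an adjusted p under 0.05, 10 at an unadjusted p under 0.001 with over 2-fold, 8 with a floor, 8 with a pseudocount of 16, 2 without the intensity trend, 7 with array weights, 9 with only these 2 groups, 8 with controls 3 to 6 alone, 1 with the fixed block and 0 with controls 1 and 2 alone, where fewer arrays were fitted. With 1 array left out it was 1 to 8, at 1, 2 and 1 without control replicates 3, 4 and 6 and at 8 without fibrotic replicate 3. The median was -0.66 with controls 1 and 2 alone and with the fixed block, and -1.11 to -0.81 with 1 array left out. Between fibrotic and non-fibrotic bronchi the 35 calls became 22 without the trend, 11 with only the 2 groups, 23 with controls 1 and 2 alone and 25 to 36 with 1 array left out, and the median was -3.55 to -2.92. The causes were not tested.

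Small non-fibrotic differences changed sign. With controls 1 and 2 alone, and equally with the fixed block, Rsph1 was -0.28, Tekt2 0.26, Tekt4 -0.04, Cfap144 0.22 and Cfap90 0.71. Rsph1 was -0.05 after quantile normalization. With the mean of probe sets Cfap144 was 0.02 and Cfap36 0.04, and with the second probe set Dnali1 was 1.15, Rsph10b 0.47, Cfap144 0.14 and Cfap36 0.72. With 1 array left out Cfap144 was -0.32 to 0.12 (0.12 without non-fibrotic replicate 4) and Cfap410 -0.57 to 0.07 (0.07 without non-fibrotic replicate 8). Between fibrotic and non-fibrotic bronchi Cfap418 was 0.03 with median centring and Cfap97 -0.33 with array weights, and with 1 array left out Cfap418 was -0.74 to 0.40, Cfap97 -0.66 to 0.70 and Dnah17 -0.93 to 0.62. None of these differences was called.

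No paired analysis was possible because the labels do not tie fibrotic and non-fibrotic specimens to rats, and controls came from other rats. The labels do not say that replicate numbers stand for animals. With 3 arrays a group, signals under 6.52 give no order among low genes. This limits the size of the fibrotic differences of the 30 genes whose fibrotic mean lay under it. It also limits those of further genes with only some fibrotic arrays under it, such as Odad4.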

Other observations

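Dnal4, a light chain of the outer arm, was kept out because both of its probe sets also match its pseudogene. One had signals of 7.87, 7.79 and 7.44 in fibrotic and 9.09, 8.99 and 8.90 in non-fibrotic bronchi, with a mean of 9.13 ± 0.75 (SD, n = 6) in controls (fibrotic difference -1.43, adjusted p = 0.017 by limma). The other had 8.18, 7.41 and 8.01 in fibrotic and 8.15, 7.69 and 8.06 in non-fibrotic bronchi, with a mean of 9.05 ± 0.81 in controls (-1.18, adjusted p = 0.066). In controls 1 and 2 these probe sets lay at 7.98 to 8.37, and in controls 3 to 6 at 9.21 to 9.90.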
